A study of Mus musculus with 8 samples.

Results

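A set of 10 genes that mark alveolar macrophages was followed in macrophages sorted from mouse lung under a gate meant for another cell, the interstitial macrophage. The genes were taken by gene symbol from a list of 10: the chitinase-like gene Chil3, the ribonuclease genes Ear1 and Ear2, the arginine transporter Slc7a2, the proton pump subunit Atp6v0d2, the scavenger receptor Marco, the nuclear receptor Pparg, the carbonic anhydrase Car4, the keratin Krt79 and the fatty acid binding protein Fabp1. All 10 were among the 22597 genes of the count table, and 8 of the 10 had enough counts to be tested. Krt79 and Fabp1 did not.

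The study asked what loss of the TGF-β receptor Tgfbr2 does to interstitial macrophages that refill an emptied niche. The 4 Tgfbr2_KO libraries (KO 1 to KO 4) came from recipients of Lyz2Cre Tgfbr2fl/fl marrow and the 4 WT libraries (WT 1 to WT 4) from recipients of Tgfbr2fl/fl marrow, so Cre was present only in the KO donors. Recipients of both genotypes carried a diphtheria toxin receptor in interstitial macrophages (called IMDTR and Cx3cr1-DTR in the labels), were irradiated with the thorax shielded, received 50 ng of diphtheria toxin after 1 month and were sampled 10 days later. The samples were from female C57BL/6 mice labelled 12 to 16 weeks old, while the protocol gives the irradiated recipients as 18 weeks old. Lyz2 drives Cre in myeloid cells in general, alveolar macrophages included. Here Lyz2Cre was in the KO donor marrow only, and the shielded lung keeps cells of the host, which did not come from that marrow. The labels do not say whether the libraries of a group came from separate mice, so p-values measure the spread between these libraries.

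Alveolar macrophages line the airspaces, are seeded around birth and clear surfactant lipid and inhaled particles. Their identity depends on GM-CSF and on TGF-β, which together induce the nuclear receptor PPARγ, and PPARγ in turn drives genes of lipid uptake. Interstitial macrophages sit in the tissue around vessels and airways and are replaced from blood monocytes, which use some of the same genes: Chil3 is also read in classical and Ear2 in non-classical monocytes.

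Library totals were between 15597310 and 37654133 estimated counts. Tgfbr2 was at 423, 575, 529 and 538 normalised counts (CPM, scaled to library size) in KO 1 to KO 4, against 547, 473, 545 and 542 CPM in WT 1 to WT 4, so the sum over the whole gene did not separate the genotypes, and the floxed exon was not analysed here. KO 1, WT 1 and WT 2 held far more lung tissue RNA than the other 5 libraries: 17 endothelial genes summed to 6622, 4388 and 3395 CPM in KO 1, WT 1 and WT 2, against 309 to 379 CPM in the others. These 3 are called lung-rich below, and each comparison is given over all 8 libraries, with the library set as a term, and within each set. The other 5 were unusually alike within a genotype. Counts of WT 3 and WT 4 differed by a median chi-square 1.86 times the value that counting error gives, and those of WT 1 and WT 2 by 4.50 times. Where KO 2 and KO 3 differed by at least 1.5-fold, at 10 CPM or more in one of them, KO 4 lay between them for 64 of 67 genes. These libraries may not be independent, so a reduced fit, with WT 3 merged into WT 4 and no KO 4, was also run for each comparison except those that set the lung-rich libraries apart, and its values are given beside the named calls that it ends. Within the other 5 libraries the merged library is then the only WT library, and fewer of all genes passed.

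The sorted cells carried interstitial macrophage transcripts. C1qa, a complement subunit of that population, was at 1394, 3243, 2972 and 3054 CPM in KO 1 to KO 4 and at 2096, 2234, 3146 and 3173 CPM in WT 1 to WT 4. Alveolar macrophage markers differed widely in level. Itgax was at 183 to 450 CPM in the lung-rich libraries and at 371 to 900 CPM in the other 5. Lpl was at 439 to 505 and 738 to 1046 CPM in the same sets, and Il1rn at 335 to 538 and 880.5 to 981 CPM. Others were low beside C1qa. The sialic acid lectin Siglecf was at 1.02, 2.29, 1.99 and 1.43 CPM in the KO libraries, against 1.48, 2.59, 3.54 and 5.15 CPM in the WT libraries, and the lipid droplet gene Cidec was at no more than 0.438 CPM in any library. In bulk RNA, fewer alveolar macrophages and less RNA of these genes per cell cannot be told apart. Epx, the peroxidase of eosinophils, which share Siglecf and the Ear genes, was at 0.110 CPM in KO 4 and at 0 in the other 7 libraries.

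Of the 8 tested genes, Chil3 and Slc7a2 had the largest fold changes, over all 8 libraries and in the other 5. Both were abundant in WT 3 and WT 4 and low in all 4 KO libraries, but both were also lower in WT 1 and WT 2 than in WT 3 and WT 4. Ear2 and Pparg were level between genotypes within each set. Marco went the opposite way to Chil3 and was scarce throughout. Car4 was highest in the 3 lung-rich libraries and, among the other 5, higher in WT 3 and WT 4. Ear1, on few counts, and Atp6v0d2 were lower in KO in the other 5 libraries (log2 fold change -2.08 and -0.87). Krt79 and Fabp1 lay near the counting floor.

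**Figure D1:**
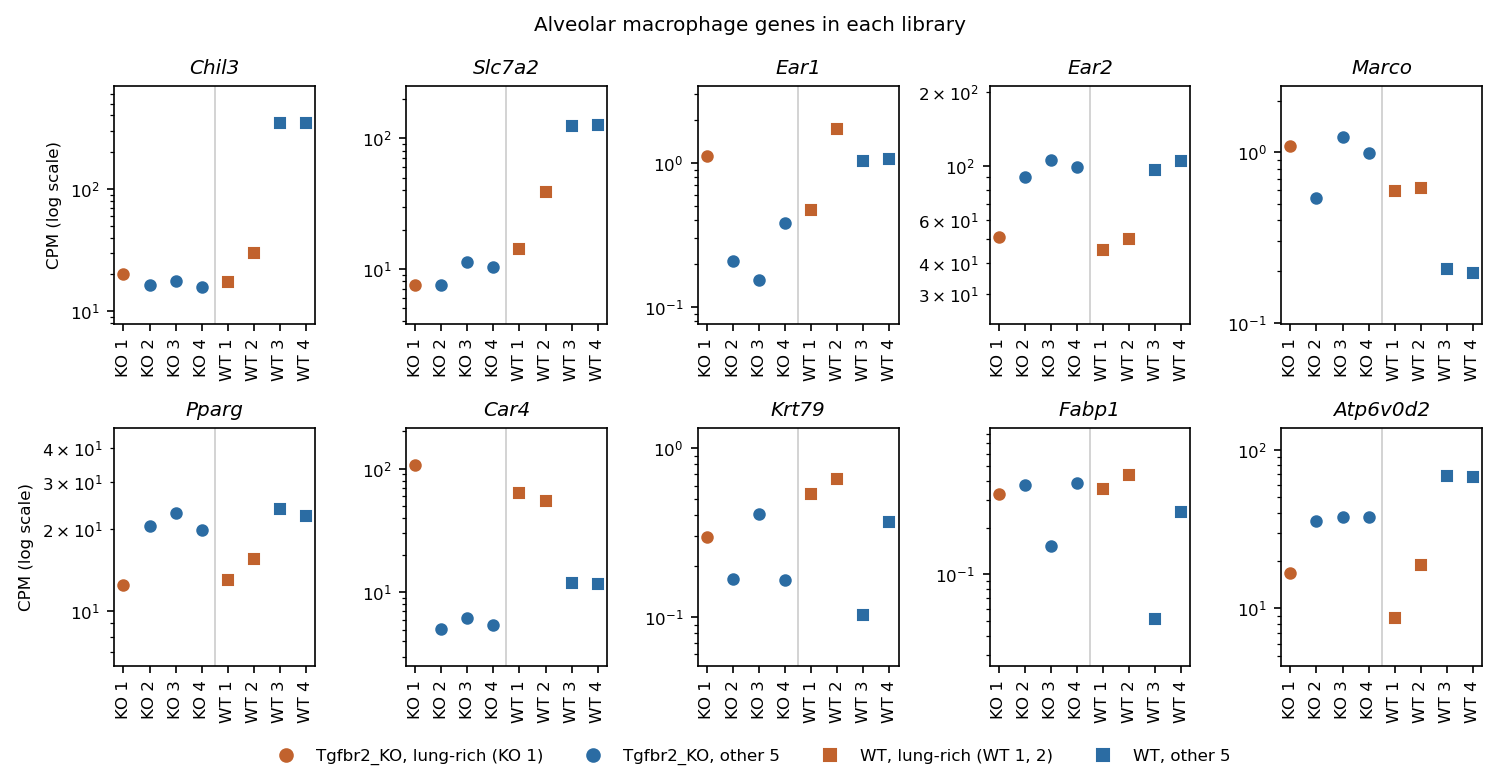
CPM of each of the 10 genes (log scale) in KO 1 to KO 4 (circles) and WT 1 to WT 4 (squares), orange for the lung-rich libraries and blue for the other 5. Chil3 and Slc7a2 stand highest in WT 3 and WT 4, Car4 stands high in the 3 orange libraries, and Ear2 and Pparg differ by set more than by genotype.

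With genotype alone, none of the 8 tested genes passed in the edgeR quasi-likelihood test over 8 libraries, lower or higher in KO. An unadjusted p under 0.05 was seen for 3 of them (Chil3, Slc7a2 and Marco), and for 1328 of all 12750 genes tested. Of all 12750 genes tested, 0.102% passed lower and 0.196% higher in that fit. DESeq2 on the same libraries passed 2 of the 8, Chil3 and Slc7a2, both lower, and of the 12750 genes it passed 180 as lower and 347 as higher. With the library set as a term, Chil3 and Slc7a2 were lower and Marco higher, against 7.89% of all genes lower and 8.59% higher. None of these 3 calls held in the reduced fit. In the other 5 libraries, 5 of the 8 were lower in KO (Chil3, Slc7a2, Ear1, Car4 and Atp6v0d2) and 1 was higher (Marco). The background in that comparison was large: 18.7% of 12624 genes were lower and 19.7% higher. Every KO value lay below every WT value for the same 5 genes, as it did for 30.3% of all genes tested there.

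Between KO 1 and the lung-rich WT 1 and WT 2, a contrast with a single KO library whose spread is taken to be that of the others, Car4 was higher and none was lower (background 11.7% higher, 9.51% lower; DESeq2 also passed Slc7a2 as lower). The difference in the genotype effect between the sets passed for 2 of the 8, Chil3 and Car4, both with a higher value in the lung-rich set, against 8.84% of all genes in that direction and 10.1% in the other. The median log2 fold change of the 8 genes was -0.28 over all libraries, -0.35 adjusted for library set, -0.98 in the other 5 and 0.04 in the lung-rich libraries. Over all genes tested it was -0.01, 0.03, 0.00 and 0.04 in the same fits.

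**Figure D2:**
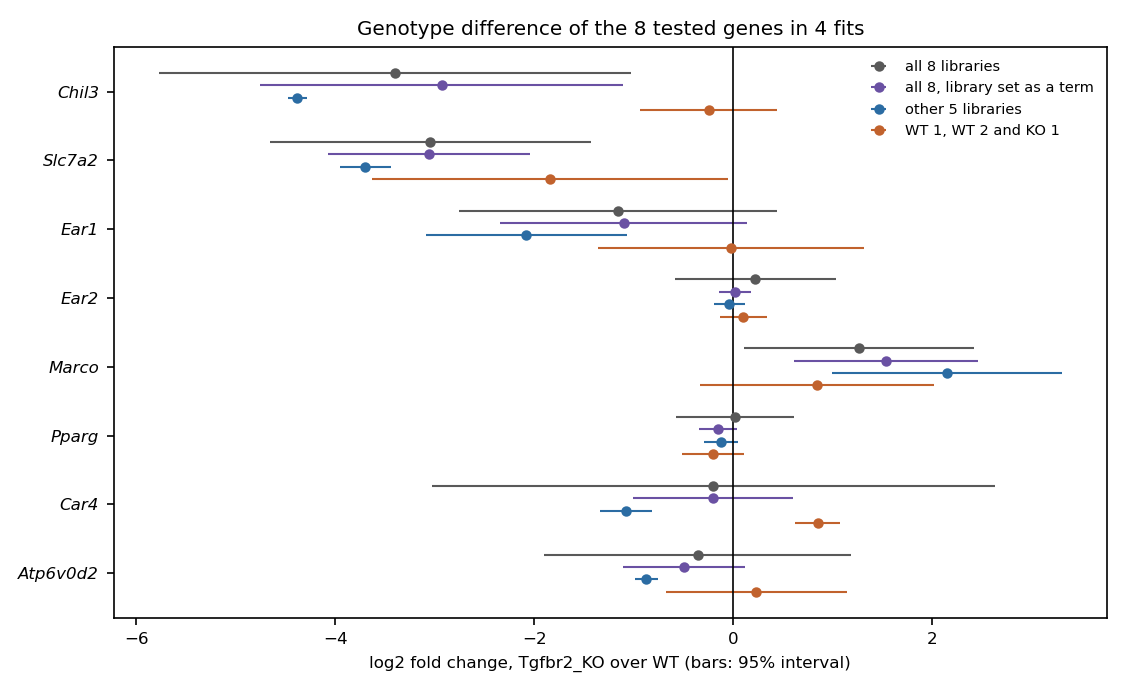
log2 fold change of Tgfbr2_KO over WT for the 8 tested genes in the edgeR fits over all 8 libraries, with the library set as a term, within the other 5 libraries and within KO 1, WT 1 and WT 2; bars are 95% intervals. Chil3 lies at -4.38 in the other 5 libraries and at -0.25 in the lung-rich ones, and Car4 lies on opposite sides of 0 in the other 5 and the lung-rich libraries.

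Chil3 (ENSMUSG00000040809, GRCm38 chromosome 3, 106147554 to 106167564, minus strand) encodes Ym1, a secreted chitinase-like protein without enzyme activity. It was at 20.3, 16.5, 17.6 and 15.8 CPM in KO 1 to KO 4, against 17.5, 30.0, 348 and 347 CPM in WT 1 to WT 4. The KO libraries were uniform and the WT libraries were not: WT 3 and WT 4 stood far above the other 6, and WT 1 lay within the KO range. The means were 17.6 ± 1.999 CPM in KO and 186 ± 187 CPM in WT (SD, n = 4 each). In the other 5 libraries the log2 fold change was -4.38 (SE 0.05, edgeR adjusted p = 1.485e-22). In the lung-rich libraries it was -0.25 (95% interval -0.93 to 0.44, edgeR adjusted p = 0.605), and the difference between the sets was 4.14 (SE 0.33, edgeR adjusted p = 8.332e-04). Adjusted for library set the value was -2.93 (edgeR adjusted p = 0.0415), and it was -2.39 in the reduced fit (edgeR adjusted p = 0.235).

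The low Chil3 of WT 1 and WT 2 was set beside their macrophage RNA. Chil3 was at 5.03% and 8.63% of the mean of WT 3 and WT 4 in WT 1 and WT 2. The summed CPM of 14 interstitial macrophage genes was at 59.9% and 66.4% of that mean in the same libraries. Chil3 was thus lower in WT 1 and WT 2 by more than interstitial macrophage RNA was, and the part of lung tissue RNA in this was not tested. Chil3 is also a gene of classical monocytes, and the other markers of that cell went both ways. In the other 5 libraries 18.7% of all genes were lower and 19.7% higher. The share of classical monocyte genes that were higher there was close to that of all genes. Of the 10 classical monocyte genes, Chil3 included, 3 were lower in the other 5 libraries (Chil3, the proteoglycan gene Vcan and Mgst1) and 2 higher (the surface antigen Ly6c2 and the transglutaminase subunit F13a1, of which F13a1 alone passed in the reduced fit). The chemokine receptor Ccr2, which monocytes need to leave the marrow, was at 284, 685, 539 and 604 CPM in KO 1 to KO 4, against 577, 418, 801 and 808 CPM in WT 1 to WT 4. Its set-adjusted log2 fold change was -0.54 (edgeR adjusted p = 0.0303), and -0.63 in the reduced fit (edgeR adjusted p = 0.156). Ly6c2 was at 28.7, 41.7, 55.1 and 48.5 CPM in KO, against 17.9, 17.1, 32.3 and 35.2 CPM in WT. The part of monocyte RNA in the Chil3 values was not tested.

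The start of Chil3 is shown because this gene has the largest fold change of the 8 over all libraries and in the other 5, though not after set adjustment or in the lung-rich set. The sequence is RefSeq's on GRCm38.p6, chr3:106167515-106167814, minus strand, 250 bases before to 50 after the start, with the match to TATAAA in capitals.
Chil3 promoter: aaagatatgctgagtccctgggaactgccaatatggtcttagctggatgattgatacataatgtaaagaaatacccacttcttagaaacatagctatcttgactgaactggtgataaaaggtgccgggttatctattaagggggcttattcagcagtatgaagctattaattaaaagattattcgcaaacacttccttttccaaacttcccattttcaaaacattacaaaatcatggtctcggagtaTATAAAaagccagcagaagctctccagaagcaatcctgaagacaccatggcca
This match to the TATA box motif lies across the annotated start, and whether it acts as a TATA box was not tested. Searched on both strands, the motif was present in 13.6% of 32851 promoters of this length. It was also in those of 4 of the 8 genes whose promoters were at hand. These 8 include the untested Krt79 and Fabp1 and lack Slc7a2 and Atp6v0d2. A gene with several starts was counted if any of them matched. The Smad motif CAGAC had no match in this window, which says only that these letters are not there, and was present in 49.6% of all promoters and in those of 3 of these 8 genes.

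Ear2 (ENSMUSG00000072596, chromosome 14, 44102654 to 44103534, plus strand) and Ear1 (ENSMUSG00000072601, chromosome 14, 43818765 to 43875517, minus strand) encode eosinophil-associated ribonucleases and are near-copies. Their coding sequences, of 468 and 465 bases, were identical at 95.1% of aligned positions, with 20 mismatches and an identical run of 96 bases. The window of 90 bases from coding position 81 to 170, counted from the A of the start codon, holds 8 of the differences and is shown because reads are divided between the genes at such bases, in capitals.
Ear2: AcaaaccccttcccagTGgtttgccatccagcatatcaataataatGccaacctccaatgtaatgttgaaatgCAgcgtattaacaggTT
Ear1: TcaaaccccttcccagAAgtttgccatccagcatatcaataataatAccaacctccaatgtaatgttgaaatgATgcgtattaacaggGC
The deposited counts of Ear1 and Ear2 were fractional, and the sum of the pair was a whole number to within 0.001 counts in 7 of 8 libraries. A small Ear1 value beside a large Ear2 value is therefore uncertain.

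Ear2 was at 51.4, 89.8, 106 and 98.9 CPM in KO 1 to KO 4, against 45.2, 50.4, 96.1 and 105 CPM in WT 1 to WT 4. It was higher in the other 5 libraries than in the lung-rich ones, and the genotypes overlapped. Adjusted for library set, the log2 fold change was 0.02 (95% interval -0.15 to 0.18, edgeR adjusted p = 0.910) and -0.04 in the other 5 libraries (95% interval -0.19 to 0.12, edgeR adjusted p = 0.719). The same libraries in which Chil3 fell thus had Ear2 within these narrow limits. Ear2 is also a non-classical monocyte gene, and the list of that cell, Ear2 included, summed to 2537, 1632, 1855 and 1754 CPM in KO 1 to KO 4, against 2255, 1973, 1500 and 1487 CPM in WT 1 to WT 4.

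Ear1 was at 1.12, 0.208, 0.153 and 0.385 CPM in KO 1 to KO 4, against 0.472, 1.71, 1.03 and 1.07 CPM in WT 1 to WT 4. In the other 5 libraries its log2 fold change was -2.08 (SE 0.48, edgeR adjusted p = 0.00188), on 3 to 7 counts in KO 2 to KO 4. Over 8 libraries the genotypes overlapped. Another gene of the family, Rnase2a, was at 1.25, 1.27 and 1.32 CPM in KO 2 to KO 4, against 6.36 and 5.79 CPM in WT 3 and WT 4. Ear6, Ear10 and Ear14 were at or under 0.359 CPM in all 8 libraries.

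Slc7a2 (ENSMUSG00000031596, chromosome 8, 40862396 to 40922308, plus strand) encodes a cationic amino acid transporter that brings arginine into macrophages. It was at 7.58, 7.58, 11.2 and 10.4 CPM in KO 1 to KO 4, against 14.2, 38.9, 124 and 126 CPM in WT 1 to WT 4. It was the only one of the 10 genes with every KO library below every WT library over all 8, and WT 1 was near the KO range. The share of all genes with such an order over 8 libraries was not counted, so this order is a description. The means were 9.19 ± 1.89 CPM in KO and 75.7 ± 57.7 CPM in WT (SD, n = 4 each). The log2 fold change was -3.04 over 8 libraries (edgeR adjusted p = 0.157), -3.06 adjusted for library set (SE 0.44, edgeR adjusted p = 0.00411) and -3.70 in the other 5 (SE 0.11, edgeR adjusted p = 3.818e-08). In the reduced fit the set-adjusted value was -2.87 (edgeR adjusted p = 0.0703). In the lung-rich libraries it was -1.84 (95% interval -3.63 to -0.05, edgeR adjusted p = 0.141), and the difference between the sets did not pass (1.86, edgeR adjusted p = 0.216).

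Atp6v0d2 (ENSMUSG00000028238, chromosome 4, 19876841 to 19922605, minus strand) encodes the d2 subunit of the membrane part of the vacuolar proton pump and acts in cell fusion of osteoclasts. It was at 16.6, 35.3, 37.9 and 37.66 CPM in KO 1 to KO 4, against 8.68, 18.8, 68.3 and 66.9 CPM in WT 1 to WT 4. The lung-rich libraries of both genotypes were lowest and WT 3 and WT 4 highest, with KO 2 to KO 4 between. The log2 fold change was -0.87 in the other 5 libraries (SE 0.05, edgeR adjusted p = 1.361e-10), -0.50 adjusted for library set (edgeR adjusted p = 0.248) and 0.23 in the lung-rich set (edgeR adjusted p = 0.718).

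Other subunits of the pump went both ways. Of 16 other pump genes, 5 were lower and 4 higher in the other 5 libraries (31.2% and 25.0%, against 18.7% and 19.7% of all genes), with a median log2 fold change of -0.05. Fewer of them passed in the reduced fit, as did fewer of all genes. With the library set as a term none of them passed in edgeR, as Atp6v0d2 did not. There 4 lower and 1 higher had an unadjusted p under 0.05, against 3908 of all 12750 genes in either direction. DESeq2 passed 2 as lower, against 1239 of the 12750. The ubiquitous d1 form of the subunit, Atp6v0d1, was at 94.1, 163, 160 and 174 CPM in KO 1 to KO 4, against 108, 117, 164 and 172 CPM in WT 1 to WT 4. Of 8 tested osteoclast-associated genes, 1 was higher and 5 lower in the other 5 libraries (12.5% and 62.5%, against 19.7% and 18.7% of all genes). Fewer of them were lower in the reduced fit, as were fewer of all genes. The tartrate-resistant phosphatase Acp5 was at 74.2, 79.3 and 80.5 CPM in KO 2 to KO 4, against 267 and 259 CPM in WT 3 and WT 4. The fusion gene Dcstamp was at 28.2, 26.2 and 24.5 CPM in KO 2 to KO 4, against 45.7 and 47.5 CPM in WT 3 and WT 4. The gelatinase Mmp9 was the one that was higher, at 1194, 1186 and 1203 CPM in KO 2 to KO 4, against 74.3 and 76.0 CPM in WT 3 and WT 4.

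Marco (ENSMUSG00000026390, chromosome 1, 120474538 to 120505024, minus strand) encodes a class A scavenger receptor that binds inhaled particles and bacteria, and it is a hallmark of the alveolar macrophage surface. It was at 1.09, 0.541, 1.22 and 0.989 CPM in KO 1 to KO 4, against 0.590, 0.614, 0.205 and 0.197 CPM in WT 1 to WT 4. It was lowest where Chil3 was highest, in WT 3 and WT 4, and these values rest on 4 and 7 counts. Adjusted for library set, its log2 fold change was 1.54 (SE 0.40, edgeR adjusted p = 0.0350) and 2.15 in the other 5 libraries (SE 0.55, edgeR adjusted p = 0.00433). The second call was lost with WT 4 left out (edgeR adjusted p = 0.0794) and in the reduced fit (2.10, edgeR adjusted p = 0.0877).

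Pparg (ENSMUSG00000000440, chromosome 6, 115360951 to 115490399, plus strand) encodes the nuclear receptor that is induced as fetal monocytes become alveolar macrophages. It was at 12.5, 20.5, 22.9 and 19.95 CPM in KO 1 to KO 4, against 12.99, 15.5, 23.8 and 22.4 CPM in WT 1 to WT 4. The genotypes overlapped, and the 3 lung-rich libraries were lowest. The log2 fold change was -0.12 in the other 5 libraries (95% interval -0.29 to 0.05, edgeR adjusted p = 0.264) and -0.15 adjusted for library set (95% interval -0.34 to 0.04, edgeR adjusted p = 0.260).

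Genes that PPARγ is known to drive went both ways. Of 14 tested lipid genes, 4 were higher and 6 lower in KO in the other 5 libraries, with a median log2 fold change of -0.12. Adjusted for library set, 2 were higher and 3 lower. The shares were 28.6% and 42.9% in the other 5 libraries, against 19.7% and 18.7% of all genes. After set adjustment they were 14.3% and 21.4%, against 8.59% and 7.89%. In the reduced fit fewer of these lipid genes passed in the other 5 libraries, as did fewer of all genes. None passed in it after set adjustment, where 70 of all 13479 genes were higher and 115 lower. The fatty acid carrier Fabp4 was at 5.54, 9.78 and 8.41 CPM in KO 2 to KO 4, against 2.20 and 3.12 CPM in WT 3 and WT 4. The fatty acid receptor Cd36 was at 524, 511 and 516 CPM in KO 2 to KO 4, against 262 and 275 CPM in WT 3 and WT 4. Lower in KO were the cholesterol exporter Abcg1, at 97.9, 109 and 106 CPM in KO 2 to KO 4, against 188 and 186 CPM in WT 3 and WT 4, and the lipid droplet coat gene Plin2. Plin2 was at 288, 280 and 282 CPM in KO 2 to KO 4, against 397 and 410 CPM in WT 3 and WT 4.

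Car4 (ENSMUSG00000000805, chromosome 11, 84957786 to 84966044, plus strand) encodes a membrane carbonic anhydrase that alveolar macrophages share with a capillary endothelial cell of the lung. It was at 107, 5.08, 6.22 and 5.44 CPM in KO 1 to KO 4, against 64.0, 54.8, 11.9 and 11.7 CPM in WT 1 to WT 4. KO 1 stood far above the other KO libraries. Over all 8 libraries the values split by set and not by genotype, while within each set the genotypes differed, in opposite directions. The log2 fold change was -1.08 in the other 5 libraries (SE 0.12, edgeR adjusted p = 8.591e-07) and 0.85 in the lung-rich set (SE 0.10, edgeR adjusted p = 3.445e-04), and the difference between the sets was 1.93 (SE 0.15, edgeR adjusted p = 2.098e-05). In a comparison chosen after its values were seen, Car4 was divided by the summed CPM of 17 endothelial genes. Per 1000 endothelial CPM there were 16.1, 16.5, 16.4 and 16.2 CPM of Car4 in KO 1 to KO 4, against 14.6, 16.1, 34.6 and 34.2 in WT 1 to WT 4. This sum holds the endothelin receptor gene Ednrb, which was at 118, 56.1, 85.4 and 70.9 CPM in KO 1 to KO 4, against 61.9, 54.1, 8.15 and 9.08 CPM in WT 1 to WT 4. Without Ednrb, the values were 16.4, 20.1, 21.1 and 20.5 in KO 1 to KO 4, against 14.8, 16.4, 35.4 and 35.1 in WT 1 to WT 4. WT 3 and WT 4 were highest under both sums, and the part of endothelial RNA in the Car4 values was not tested.

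**Figure D3:**
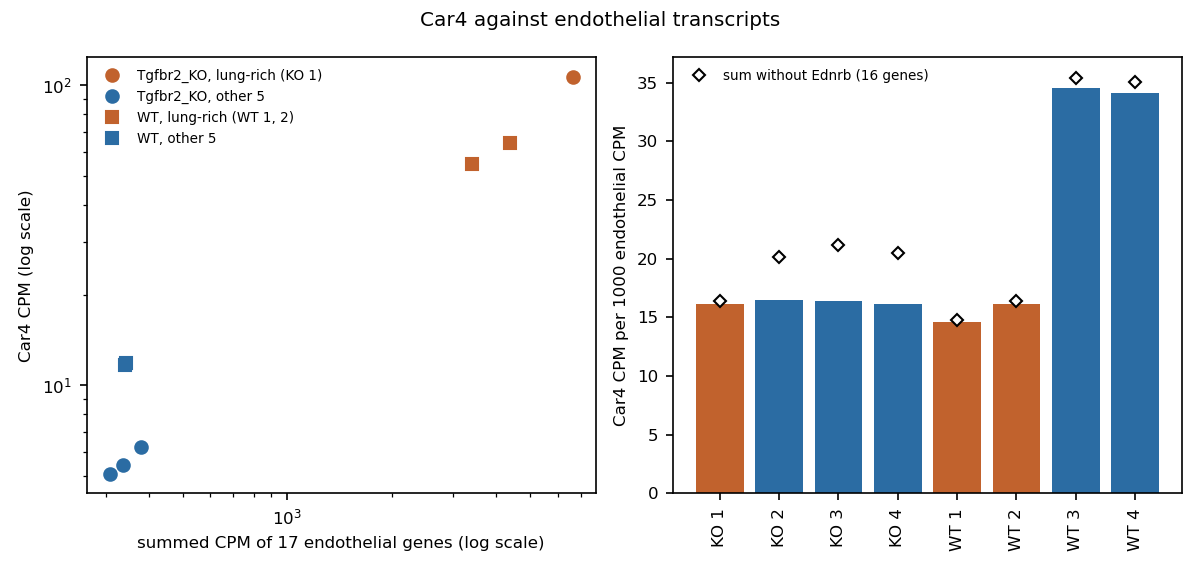
Left, Car4 CPM against the summed CPM of 17 endothelial genes (both log scale) in the 8 libraries, circles for KO and squares for WT. Right, Car4 CPM per 1000 endothelial CPM in each library, with bars for the sum of all 17 genes and open diamonds for the sum without Ednrb. WT 3 and WT 4 stand highest, at 34.6 and 34.2 for the bars and at 35.4 and 35.1 for the diamonds.

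Krt79 (ENSMUSG00000061397, chromosome 15, 101929332 to 101940324, minus strand), a keratin gene read in alveolar macrophages, was at 0.297, 0.167, 0.408 and 0.165 CPM in KO 1 to KO 4, against 0.531, 0.658, 0.103 and 0.366 CPM in WT 1 to WT 4. Fabp1 (ENSMUSG00000054422, chromosome 6, 71199827 to 71205023, plus strand), which encodes the liver fatty acid binding protein, was at 0.330, 0.375, 0.153 and 0.385 CPM in KO 1 to KO 4, against 0.354, 0.438, 0.0513 and 0.253 CPM in WT 1 to WT 4. A count of 3 was worth 0.0843 to 0.177 CPM, so both genes were within a few counts of the floor in several libraries. A genotype difference in them was not tested.

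Per kilobase of the longest transcript, the order of levels differed between the genotypes in the other 5 libraries. In KO 2 to KO 4 Ear2 led, at a mean level of 137 CPM per kilobase, followed by Atp6v0d2 at 14.6, Chil3 at 10.8, Pparg at 9.95 and Car4 at 4.44. In WT 3 and WT 4 Chil3 led at 226, followed by Ear2 at 140, Atp6v0d2 at 26.6, Slc7a2 at 15.8, Pparg at 10.9 and Car4 at 9.39. Slc7a2 stood at 1.23 CPM per kilobase in KO 2 to KO 4. Chil3 made up 8.30% to 9.39% of the summed CPM of the 10 genes in the KO libraries, against 10.6% and 14.2% in WT 1 and WT 2 and 51.67% and 51.03% in WT 3 and WT 4.

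RNA brought in by a single cell type carries the genes of that type at 1 ratio, so the ratios between the 10 genes were followed. This holds only where no other cell supplies these genes, and Chil3, Ear2 and Car4 are also genes of monocytes or endothelium. The ratios did not stay fixed, and the part of carry-over in this was not tested. There were 1.63, 0.805, 0.767 and 0.791 CPM of Chil3 per CPM of Pparg in KO 1 to KO 4, against 1.35, 1.93, 14.6 and 15.5 in WT 1 to WT 4. Slc7a2 to Atp6v0d2 was 0.457, 0.215, 0.296 and 0.276 in KO, against 1.63, 2.07, 1.82 and 1.88 in WT, so this ratio separated the genotypes in both sets. Chil3 and Slc7a2 kept closer to each other, with a ratio of 2.68, 2.18, 1.57 and 1.52 in KO 1 to KO 4, against 1.23, 0.771, 2.80 and 2.77 in WT 1 to WT 4.

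Each gene was then set against the mean log2 CPM of WT in the same library set. In KO 2 to KO 4 the 8 genes ran from -4.39, -4.30 and -4.45 for Chil3 up to 1.13, 2.19 and 1.91 for Marco. In KO 1 they ran from -1.62 for Slc7a2 to 0.85 for Car4, and 3 of the 8 lay below 0. Across the 8 libraries, the correlation of set-centred log2 CPM over the 28 pairs of genes had a median of 0.50 and ran from -0.88, for Chil3 with Marco, to 0.95, for Chil3 with Slc7a2. It was negative in 6 pairs. These values share their libraries and rest largely on WT 3 and WT 4 against KO 2 to KO 4, and they are a description. The 5 genes whose set-centred level was most like the mean of the 8, over the 8 libraries, were Lap3 (Pearson r 0.997), B2m (0.996), Pxdc1 (0.993), Ddhd1 (0.993) and Vipas39 (0.993).

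**Figure D4:**
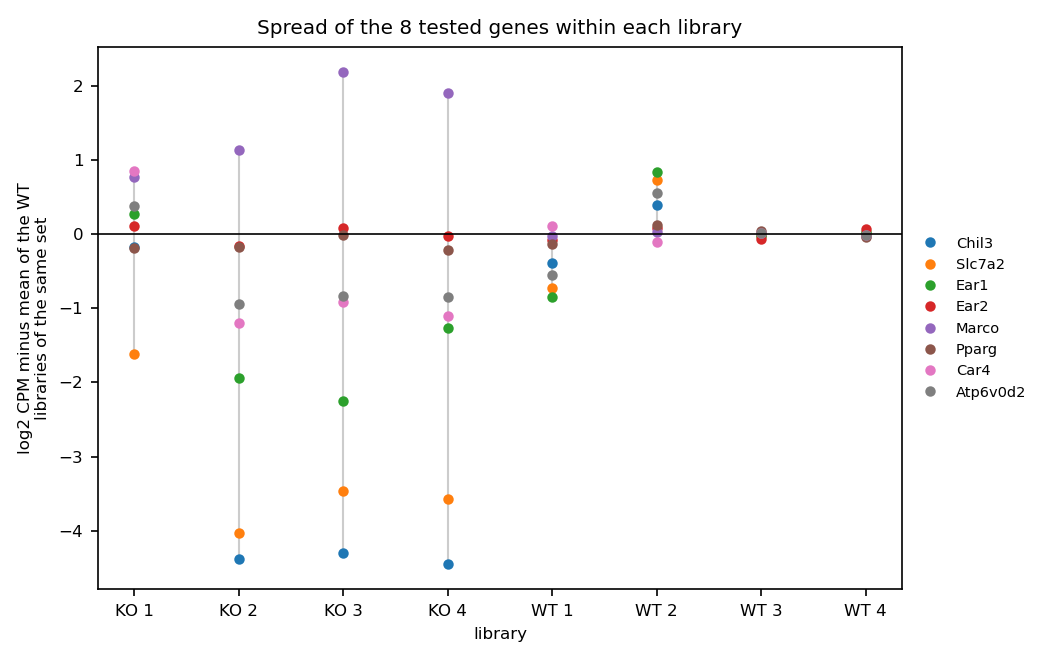
log2 CPM of each of the 8 tested genes minus the mean log2 CPM of WT in the same library set (0 by construction for the WT mean), by library. In KO 2 to KO 4 the genes fan out from about -4.4 for Chil3 to as much as 2.19 for Marco, while Ear2 and Pparg stay near 0.

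Another 30 genes of the alveolar macrophage programme were examined, of which 27 were tested. None passed over 8 libraries with genotype alone in edgeR. There 6 lower and 2 higher had an unadjusted p under 0.05, against 1328 of all 12750 genes in either direction. DESeq2 passed 4 as lower and 1 as higher, against 180 and 347 of the 12750. Of the 27, 13 were lower and 4 higher adjusted for library set (48.1% and 14.8%, against 7.89% and 8.59% of all genes). In the other 5 libraries 20 were lower and 5 higher (74.1% and 18.5%, against 18.7% and 19.7%). The median log2 fold change was -0.84 in the other 5. In the lung-rich set, where KO 1 is the only KO library, the median was -0.25, against 0.04 for all genes. In the reduced fit fewer of the 27 were lower in the other 5 libraries, as were fewer of all genes. After set adjustment only Olr1 passed in it, as lower, against 115 of all 13479 genes. Plet1, a surface protein of alveolar macrophages, was at 4.15, 1.21, 2.40 and 1.21 CPM in KO 1 to KO 4, against 3.13, 6.53, 24.5 and 26.6 CPM in WT 1 to WT 4. The oxidised lipoprotein receptor Olr1 was at 8.74, 19.6, 19.6 and 17.04 CPM in KO, against 17.8, 31.7, 92.2 and 89.5 CPM in WT. These genes had the pattern of Chil3, high in WT 3 and WT 4, with WT 1 and WT 2 between or near the KO libraries.

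The integrin Itgax (CD11c), which helps to gate alveolar macrophages, was at 183, 371, 387 and 379 CPM in KO 1 to KO 4, against 280, 450, 900 and 891 CPM in WT 1 to WT 4. The cholesteryl ester hydrolase Nceh1 and the vesicle gene Dmxl2 also fell in the set-adjusted fit, by 0.64 and 1.08 on the log2 scale (edgeR adjusted p = 0.00204 and 0.00253; 0.0586 and 0.0557 in the reduced fit). Siglecf fell by 1.13 (edgeR adjusted p = 0.0187; 0.123 in the reduced fit) and coagulation factor F7 fell by 1.496 (edgeR adjusted p = 0.0287; 0.190 in the reduced fit). The collagenolytic cathepsin Ctsk was at 22.3, 24.1 and 24.6 CPM in KO 2 to KO 4, against 42.1 and 36.9 CPM in WT 3 and WT 4. Genes of the same list went the other way in the other 5 libraries. The lipase Lpl was at 1004, 1046 and 1024 CPM in KO 2 to KO 4, against 738 and 747 CPM in WT 3 and WT 4, and Gda, Ltc4s, Ralgds and Fabp4 were higher there too. In the lung-rich set Lpl was at 439 CPM in KO 1, against 505 and 462 CPM in WT 1 and WT 2, and its genotype effect differed between the sets by -0.60 on the log2 scale (edgeR adjusted p = 3.943e-04). Ralgds overlapped between the genotypes there, at 192 CPM in KO 1, against 201 and 173 CPM in WT 1 and WT 2. Krt19, a keratin shared with epithelium, was at 21.7, 19.96 and 14.1 CPM in KO 1, WT 1 and WT 2 and at no more than 1.03 CPM in the other 5.

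**Figure D5:**
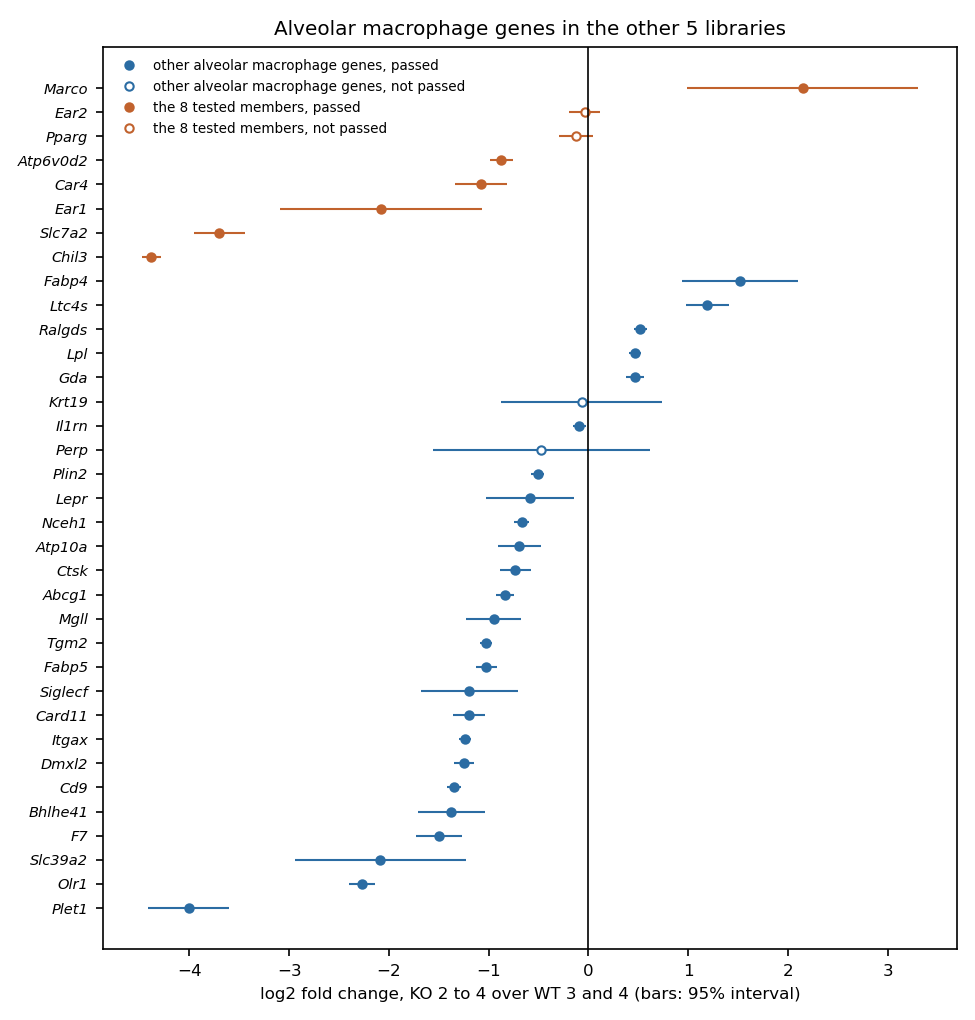
log2 fold change of KO 2 to KO 4 over WT 3 and WT 4 for the 8 tested genes (orange) and the 27 other alveolar macrophage genes (blue), with 95% intervals; filled points passed at an edgeR adjusted p under 0.05. Most points lie left of 0, from -4.38 for Chil3, and Marco, Fabp4, Ltc4s, Ralgds, Lpl and Gda lie right of it.

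Of 22 regulators of the programme, 10 were lower and 5 higher in the other 5 libraries, with a median log2 fold change of -0.02. Adjusted for library set, 9 were lower and 3 higher. The shares were 45.5% and 22.7% in the other 5 libraries, against 18.7% and 19.7% of all genes. After set adjustment they were 40.9% and 13.6%, against 7.89% and 8.59%. In the reduced fit fewer regulators passed in the other 5 libraries, as did fewer of all genes. After set adjustment 4 of the 22 were lower in it (Itgav, Tgfbr1, Bhlhe40 and Cebpa), against 115 of all 13479 genes. The TGF-β receptor chain Tgfbr1 was at 194, 285, 304 and 295 CPM in KO 1 to KO 4, against 405, 506, 675 and 647 CPM in WT 1 to WT 4. The integrin chain Itgav, which helps to release active TGF-β, was at 92.9, 106, 99.7 and 103 CPM in KO, against 155, 146, 182 and 178 CPM in WT. For both genes every KO library lay below every WT library, in the lung-rich set too. The share of all genes with this order over all libraries was not counted, so it is a description. The transcription factors Bhlhe40 and Cebpa fell by 0.68 and 1.10 on the log2 scale after set adjustment (edgeR adjusted p = 8.318e-04 and 0.00135). The GM-CSF receptor chain Csf2rb was at 415, 428 and 423 CPM in KO 2 to KO 4, against 665 and 663 CPM in WT 3 and WT 4.

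Interstitial macrophage genes also differed between the genotypes, in smaller folds than Chil3. Of 14, 7 were lower and 4 higher in the other 5 libraries (50.0% and 28.6%, against 18.7% and 19.7% of all genes). Fewer of the 14 passed in the reduced fit, as did fewer of all genes. In the lung-rich set the 14 summed to 9863 CPM in KO 1, against 14942 and 16577 CPM in WT 1 and WT 2. Their median log2 fold change there was -0.59, against 0.83 for endothelial, 0.67 for epithelial and 0.04 for all genes. The part of this in the Chil3 and Car4 effects of that set was not tested. Tmem119 was at 30.2, 34.4 and 32.7 CPM in KO 2 to KO 4, against 78.6 and 78.6 CPM in WT 3 and WT 4, and the chemokine receptor Cx3cr1 was at 358, 294 and 326 CPM, against 568 and 575 CPM. Ms4a7 and Apoe fell by 0.79 and 0.78 after set adjustment (edgeR adjusted p = 0.00137 and 0.00216; 0.0475 and 0.0656 in the reduced fit).

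Markers of some other cells differed in the other 5 libraries, where 18.7% of all genes were lower and 19.7% higher. Of 10 neutrophil genes, 7 were lower: the alarmin S100a8 was at 7.496, 7.49 and 9.18 CPM in KO 2 to KO 4, against 16.5 and 16.5 CPM in WT 3 and WT 4. Of 10 non-classical monocyte genes 6 were higher there and none lower, and of 15 tested epithelial genes 6 were lower and 1 higher. In the reduced fit fewer neutrophil, epithelial and non-classical monocyte genes passed, as did fewer of all genes. Of 17 endothelial genes 3 were lower and 2 higher (17.6% and 11.8%), and of 12 fibroblast genes 1 was lower and 1 higher (8.33% each), shares below those of all genes. Summed endothelial genes were at 309, 379 and 337 CPM in KO 2 to KO 4, against 344 and 342 CPM in WT 3 and WT 4. Without Ednrb, which is high in KO, they summed to 253, 294 and 266 CPM in KO 2 to KO 4, against 336 and 333 CPM in WT 3 and WT 4. The eosinophil-associated lipoxygenase gene Alox15, also a gene of resident macrophages, was at 16.7, 79.3 and 50.0 CPM in KO 2 to KO 4, against 2.62 and 2.08 CPM in WT 3 and WT 4. It did not pass in these libraries (edgeR adjusted p = 0.0700). Adjusted for library set it passed as higher (log2 fold change 3.75, edgeR adjusted p = 0.0262), but not in the reduced fit (3.29, edgeR adjusted p = 0.260). In the lung-rich set it was at 0.956 CPM in KO 1, against 1.24 and 0.438 CPM in WT 1 and WT 2. The part of these cells in the alveolar macrophage values was not tested.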

How the data were processed

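RNA of sorted lung macrophages was extracted with TRIzol, made into stranded poly(A) libraries and read on a NovaSeq, per the labels. Estimated counts were deposited as 1 table of genes by libraries, merged from salmon output by the authors, per its name. GRCm38 and DESeq2 1.40.1 are named in the submitters' processing notes. No salmon version, annotation or strand setting is given in the sources used here. Of the values, 81.8% to 84.8% per library were whole numbers. KO titles are spelled with a digit 0 and were matched to the columns of the same number.

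Rounded counts were fitted with edgeR 4.0.16 under R 4.3.3 (DESeq2 1.42.0 and limma 3.58.1 also loaded): filterByExpr (minimum count 10, minimum total 15), TMM scaling, robust quasi-likelihood F-test, Benjamini-Hochberg adjustment over all tested genes, threshold 0.05. CPM are TMM-scaled; log2 CPM used a prior count of 2. Fits used genotype alone, genotype with the library set as a term, the other 5 libraries, and 1 mean per genotype and set. The scripts were tested on simulated data. Coordinates, lengths and coding sequences are GENCODE M21 (22580 of 22597 identifiers matched) and promoters RefSeq GRCm38.p6. Alternatives were other scalings, no filter, DESeq2, each library left out, and WT 3 and WT 4 merged. Merging them and dropping KO 4 together, and the endothelial sum without Ednrb, were chosen after seeing the data.

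The members and lists were chosen with earlier results of these data known. The text names the 10 genes, for each list up to 4 genes that passed in the set-adjusted fit (lowest adjusted p first), a list of markers and the 5 genes most alike; other genes in the text, such as Csf2rb and F7, were chosen after their values were seen. Intervals of fold changes are from the edgeR fits and include the spread between libraries; the floor of 3 counts covers counting error only. Proteins were not analysed here.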

Additional observations from a re-analysis of the deposited data

Results flagged for a closer look

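Car4 in KO 1, at 106.7 CPM, lay far from the other 3 KO libraries, at 5.08, 6.22 and 5.44 CPM, and Atp6v0d2 in KO 1, at 16.59 CPM, lay below the other 3, at 35.3, 37.9 and 37.66 CPM. Chance flags about 1 in 20 groups in this way, and 20 groups were examined. The genotype effect differed between the lung-rich libraries and the other 5 for Car4, by 1.93 on the log2 scale (edgeR adjusted p = 2.098e-05), and for Chil3, by 4.14 (edgeR adjusted p = 8.332e-04). Only KO 1 carries the KO label in the lung-rich set, so both differences rest on that library.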

How the results depend on the processing

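Over 8 libraries, the count of lower genes, 0 of 8, became 2 with DESeq2, 2 with the library set as a term and 5 in the other 5 libraries alone, and the count of higher genes, 0, became 1 with the set as a term and 1 in the other 5 alone. With the set as a term, 2 lower genes became 1 without a low-count filter, 1 with WT 3 and WT 4 merged, 0 with KO 4 also dropped, and 1 to 5 with each library left out in turn; the 1 higher gene became 0 in both merged fits and 0 to 1 with a library left out. Chil3 lost this call without KO 2, KO 3, KO 4, WT 3 or WT 4 (edgeR adjusted p = 0.0927 to 0.127) and Marco without KO 3, KO 4, WT 3 or WT 4 (edgeR adjusted p = 0.0828 to 0.164). In the other 5 libraries the 5 lower calls held in every alternative run, and the higher one became 0 in the merged fit with KO 4 dropped and 0 to 1 with a library left out. Between KO 1 and WT 1 with WT 2, DESeq2 gave 1 lower gene in place of 0.

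Values near 0 that changed sign, none of them past the threshold, were Ear2 over 8 libraries (-0.037 in the other 5 alone), Pparg (-3.369e-04 with column totals, -0.15 with the set as a term, -0.12 in the other 5 alone, -0.12 to 0.18 with a library left out), Car4 (-2.67 to 0.25 with a library left out) and Atp6v0d2 (-0.69 to 0.0057 with a library left out). With the set as a term, Ear2 was -0.0094 with WT 3 and WT 4 merged, -0.0072 with KO 4 also dropped and -0.040 to 0.040 with a library left out, and in the other 5 libraries it was -0.10 to 0.032. With a replicate block, Atp6v0d2 was 0.027, no gene of the table passed, and the same numbers did not pair the libraries (r = 0.87, -0.79, 0.69 and 0.75, and 1 of 8 libraries correlated best with its own number).

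The whole-table counts moved too. Over 8 libraries 25 higher and 13 lower genes became 347 and 180 with DESeq2, 53 and 28 with column totals, 619 and 241 without KO 1, and 0 with any other library left out. With the set as a term 1095 and 1006 became 2047 and 1946 without KO 1, 516 to 664 and 627 to 728 without KO 2, KO 3 or KO 4, 307 and 488 without WT 3, 318 and 451 without WT 4, 318 and 491 with these 2 merged, and 70 and 115 with KO 4 also dropped. In the other 5 libraries 2493 and 2363 became 1306 and 1235 in that last fit. The causes were not tested. Ear1, Marco, Krt79 and Fabp1 rest on few counts, which limits their precision.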

Other observations

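The 10 genes with a set-centred log2 CPM most like that of Chil3 alone over the 8 libraries, as a description with no test, included the complement gene C3 and the transglutaminase Tgm2, and the Pearson r was from 0.991 to 0.997. C3 was at 418, 587, 619 and 614 CPM in KO 1 to KO 4, against 443, 501, 1154 and 1152 CPM in WT 1 to WT 4, so it too was highest in WT 3 and WT 4. The serine protease inhibitor Spint1 was at 11.7, 9.87, 11.5 and 10.1 CPM in KO 1 to KO 4, against 11.7, 18.3, 51.2 and 52.9 CPM in WT 1 to WT 4, close to the course of Chil3 itself. These genes were chosen after their values were seen.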
